A study of Mus musculus with 6 samples.

Results

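The mevalonate pathway to squalene epoxide was examined in NF-Y-knocked down neuro2a (N2a) cells, a mouse neuroblastoma line. It was read through 9 enzyme genes, taken in pathway order as Acat2, Hmgcs1, Mvk, Pmvk, Mvd, Idi1, Fdps, Fdft1 and Sqle. The members were fixed by name, and their probes are those whose accession in the scanner tables maps to a member. No value entered this rule, but the members were chosen with earlier results of these data known. They are 9 of 16490 genes tested, and they do not cover every enzyme of the route. All 9 had a probe, 12 probes in all, and all 12 passed the filter on low signal. Every one of these probes was well above background, by the scanner's own flag, on all 6 arrays.

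RNA was hybridised to 6 one-colour Agilent mouse arrays. The control group holds 3 arrays of N2a cells labelled Vector, read here as the empty vector, although the study's methods also name a vector with a non-targeting RNAi as a control, and the knockdown group holds 3 arrays of N2a cells that received RNAi expression vectors for NFYA and NFYC. By the study's methods, both groups were transfected with a lipid reagent and taken 2 days later, and the vector carries a green fluorescent marker. Transfection was transient and no sorting of transfected N2a cells is described, so each array averages over cells with and without the vector. Fewer cells of a kind and less RNA per cell cannot be told apart in such samples. The labels do not say whether replicates came from separate cultures, so the p-values below measure the spread between these samples, which may be technical.

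The mevalonate pathway turns acetyl-CoA into isoprene units and joins them to farnesyl diphosphate, from which squalene and then sterols are made, while side branches lead to dolichol, ubiquinone and the lipid anchors of proteins. Genes of the pathway are known to be driven by SREBP-2, a membrane-bound factor that is released when sterols run low and acts at promoters together with NF-Y and Sp1. NF-Y is a trimer of NF-YA, NF-YB and NF-YC that binds the CCAAT box. The nervous system makes its own cholesterol, which does not cross the blood-brain barrier.

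The labels were checked first on the targeted genes. Signal is given as log2 of the processed intensity relative to the array's 75th percentile, and a change is knockdown minus control on that log2 scale. Nfyc (probe A_66_P133202) changed by -1.81 (SE 0.045) and Nfya (A_52_P550049) by -0.76 (SE 0.055), both lower on every knockdown array. Nfyb (A_55_P1975456), the subunit that was not targeted, changed by 0.83 (SE 0.060). A gene is said to be called where limma's adjusted p over all probes was below 0.05 and the fold change was above 1.5, and all 3 subunit genes were called (adjusted p 0.000323, 0.00128 and 0.00131). On the 6 arrays, 61.9% to 66.2% of spots were well above background, and none of the non-control spots was saturated. The lowest shares were those of knockdown 2 (61.9%) and knockdown 3 (63.4%), the arrays in the second row of the slide. All 12 markers of neuroblastoma and sympathetic neurons were well above background on all 6 arrays, and their summed signal was 283 to 290 times the 75th percentile on control arrays and 261 to 269 on knockdown arrays. Of 11 markers of other cell types, 7 were well above background on all 6 arrays, while Cdh5 and Alb were on none. The summed signal of the 10 tested ones was 0.971 to 1.03 on control and 0.944 to 0.998 on knockdown arrays, with Col1a1 called lower (-0.77) and Pdgfra called higher (1.29). Of the neuroblastoma markers, Mycn (-0.69) and Th (-0.62) were called lower. Their part in the results was not tested.

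Signal of all 9 members was lower on every knockdown array than on any control array. This was so for 27.1% of all genes tested, and 27.7% were higher on every knockdown array. By limma, 9 of 9 members passed an adjusted p of 0.05 in the lower direction at any fold, against 15.8% of genes tested. Mvk passed only at 0.0490, and its adjusted p was not below 0.05 in 12 of 22 alternative settings, among them each of the 6 with an array left out (0.0714 to 0.131), where 8 of 9 passed. With the slide row as a block, Idi1 and Fdft1 did not pass either. With the fold threshold added, 6 of 9 were called lower, against 5.0% of genes tested, and none was called higher, against 3.91%. The 6 were Acat2, Hmgcs1, Pmvk, Mvd, Fdps and Sqle. Mvk, Idi1 and Fdft1 missed the fold threshold. The median change of the 9 members was -0.69, and that of all genes tested was 0.0053. The changes ran from -1.60 for Acat2 to -0.23 for Mvk, which is 32.9% to 85.5% of the control signal.

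**Figure D1:**
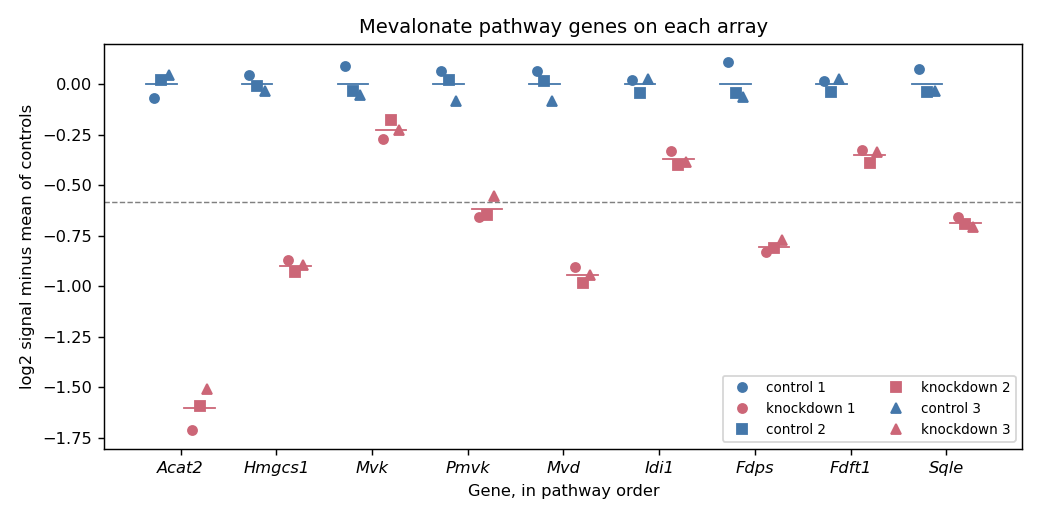
Each point is the log2 signal of a gene on 1 array minus the mean of the 3 control arrays, for the 9 members in pathway order, with controls in blue, knockdowns in red and horizontal bars at group means. The dashed line marks a 1.5-fold decrease. No knockdown point reaches a control point of its own gene, and the distance between the groups rises and falls along the pathway.

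Of the 9 members, 6 have promoter windows in the RefSeq promoter table, namely Acat2, Hmgcs1, Mvk, Pmvk, Mvd and Idi1, and Fdps, Fdft1 and Sqle were not matched. The 250 bases before the annotated start are shown for 5 of them (RefSeq, build GRCm38.p6), since members of this set moved together and the protein that was knocked down binds CCAAT. They are written 5' to 3' on the gene's strand, with CCAAT, or ATTGG where the box lies on the other strand, in capitals.
Acat2, chr17:12960726-12960975, minus strand: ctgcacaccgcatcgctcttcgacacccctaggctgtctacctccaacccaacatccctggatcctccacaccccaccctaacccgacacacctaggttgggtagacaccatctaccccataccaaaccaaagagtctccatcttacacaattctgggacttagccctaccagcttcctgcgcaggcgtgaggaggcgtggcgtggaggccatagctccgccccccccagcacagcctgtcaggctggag
Hmgcs1, chr13:119690101-119690350, plus strand: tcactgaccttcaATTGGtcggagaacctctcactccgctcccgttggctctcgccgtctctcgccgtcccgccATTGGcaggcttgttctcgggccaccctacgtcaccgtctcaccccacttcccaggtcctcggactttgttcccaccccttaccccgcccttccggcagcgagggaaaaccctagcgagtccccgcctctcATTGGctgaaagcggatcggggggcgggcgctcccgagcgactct
Mvk, chr5:114444019-114444268, plus strand: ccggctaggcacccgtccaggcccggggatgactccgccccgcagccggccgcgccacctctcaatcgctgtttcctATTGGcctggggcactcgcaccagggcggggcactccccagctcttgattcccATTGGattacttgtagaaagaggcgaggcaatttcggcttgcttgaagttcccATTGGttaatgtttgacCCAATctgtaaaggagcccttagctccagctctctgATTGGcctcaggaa
Mvd, chr8:122443423-122443672, minus strand: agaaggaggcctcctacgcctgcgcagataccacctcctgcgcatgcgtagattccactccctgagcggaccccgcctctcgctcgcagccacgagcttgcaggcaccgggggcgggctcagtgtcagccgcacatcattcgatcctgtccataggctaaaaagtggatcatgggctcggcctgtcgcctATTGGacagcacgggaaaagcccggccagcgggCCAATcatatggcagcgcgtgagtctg
Idi1, chr13:8885356-8885605, plus strand: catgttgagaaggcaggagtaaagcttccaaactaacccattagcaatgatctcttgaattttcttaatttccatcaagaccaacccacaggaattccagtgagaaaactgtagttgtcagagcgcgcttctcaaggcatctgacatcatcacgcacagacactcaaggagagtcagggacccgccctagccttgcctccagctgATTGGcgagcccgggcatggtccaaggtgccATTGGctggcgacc

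The letters CCAAT were found on either strand in 5 of the 6 members with a window. Mvk held 5 copies, at -173, -120, -67, -50 and -14, counted from the start to the leftmost base of each copy. Hmgcs1 held 3, at -237, -176 and -45. Mvd held 2, at -60 and -27, and Idi1 held 2, at -45 and -14. Pmvk has 2 annotated starts, with 1 copy at -136 before the first and none before the second. Acat2 held none. Of all 32851 windows of this length in the table, 33.8% held at least 1 copy, 2.79% at least 3 and 0.213% at least 5. Any window of a gene was then counted. At least 1 copy was held by 39.9% of 13098 genes tested, 53.5% of 660 called lower and 34.8% of 491 called higher. In the same order, at least 2 copies were held by 13.8%, 25% and 9.98%, and at least 3 by 4.41%, 11.4% and 2.85%. At least 5 were held by 0.397%, 0.758% and 0%.

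Beside these counts the changes of the same members were as follows. Mvk, with the most copies, had the smallest change and was not called, whereas Acat2, with none in this window, had the largest. Hmgcs1 and Mvd, with 3 and 2 copies, changed by -0.90 and -0.94, and Idi1, also with 2, by -0.37. Pmvk, with at most 1, changed by -0.62. The 6 members are too few and share the same arrays, so no correlation is given. Other letters searched on both strands were GGGCGG, the core of the Sp1 GC box, CACGTG, an E-box bound by basic helix-loop-helix factors, and TCACNCCAC, a form of the sterol response element to which SREBP binds. The GC box was in 5 of the 6 members, all but Pmvk, and in 54.8% of genes tested and 60.6% of genes called lower, counting any window. The sterol response element was in Hmgcs1 only, at -137, and in 1.27% of genes tested. The E-box was in none of the 6, and in 8.83% of genes tested. None of the 21 matches in members shared a base with another. A match describes letters in a window, not a bound site.

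**Figure D2:**
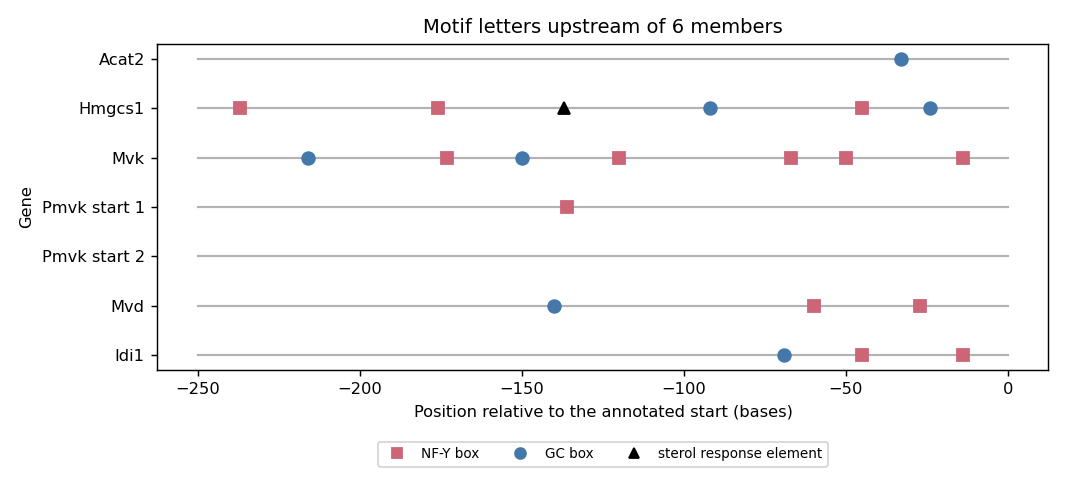
Horizontal lines stand for the 250 bases before the annotated start of 6 members, with the position in bases on the x axis. Red squares mark the NF-Y box (CCAAT), blue circles the GC box and the black triangle the sterol response element, and Mvk holds 5 squares whereas Acat2 holds none.

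The pathway begins with Acat2, the cytosolic thiolase that joins acetyl-CoA units into acetoacetyl-CoA. Its signal (probe A_66_P127411) was -1.23, -1.15 and -1.12 on control arrays 1 to 3 and -2.88, -2.76 and -2.67 on knockdown arrays 1 to 3. The groups stood 1.44 apart at their closest arrays, the widest gap of any member, and knockdown array 1 was the lowest. The change was -1.60 (SE 0.071, adjusted p 0.000442 by limma), which left 32.9% of the control signal (95% confidence interval 29.0 to 37.3). Only 70 of the 16490 genes tested had a lower change. With normexp background correction the change of Acat2 was -1.23 or -1.21, depending on the scaling, and it was still called.

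Acat2 has close relatives on the array. Acat3, a cytosolic thiolase paralog, was 1.17, 1.14 and 1.08 on control arrays and -0.99, -1.13 and -1.06 on knockdown arrays (probe A_66_P101407). Its change was -2.19 (SE 0.056, adjusted p 0.000323), so it was called lower too. Acat1, the mitochondrial thiolase of ketone body metabolism, changed by -0.36 (SE 0.048, adjusted p 0.00678) and was not called. Probe sequences were not used here, and how far the probes of Acat2 and Acat3 cross-hybridise was not tested.

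Hmgcs1 makes HMG-CoA from acetoacetyl-CoA in the cytosol. On control arrays its signal (A_55_P2032966) was 5.25, 5.19 and 5.17, and on knockdown arrays it was 4.33, 4.28 and 4.31. All knockdown values lay well under all controls, and within each group the arrays differed little. The change was -0.90 (SE 0.045, adjusted p 0.000543), or 53.6% of control (95% confidence interval 49.6 to 58.0).

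Mevalonate is then phosphorylated in steps by Mvk and Pmvk. Mvk, mevalonate kinase, read 4.40, 4.28 and 4.26 on control arrays and 4.04, 4.13 and 4.08 on knockdown arrays (A_55_P2058861). The groups were only 0.12 apart at their closest, the narrowest gap among the members. Its change was -0.23 (SE 0.059, adjusted p 0.0490), or 85.5% of control (95% confidence interval 77.1 to 94.8), and it was not called. Changes lower than that of Mvk were found in 22.2% of all genes tested.

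Pmvk, phosphomevalonate kinase, read 5.35, 5.31 and 5.20 on control arrays and 4.63, 4.64 and 4.73 on knockdown arrays (A_55_P2076533). The groups did not overlap, and control 3 and knockdown 3 were the closest pair. The change was -0.62 (SE 0.061, adjusted p 0.00274), or 65.1% of control (95% confidence interval 58.5 to 72.4). This lies just past the fold threshold of 0.585 on the log2 scale. With quantile normalization the change was -0.57, and with the 75th percentile taken over probes well above background it was also -0.57, and Pmvk was then not called.

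Mvd, the decarboxylase that yields isopentenyl diphosphate, read 3.59, 3.54 and 3.44 on control arrays and 2.62, 2.54 and 2.58 on knockdown arrays (A_51_P355943). Every knockdown array was at least 0.82 under every control. The change was -0.94 (SE 0.057, adjusted p 0.000818), or 52.0% of control (95% confidence interval 47.1 to 57.5). After Acat2 it had the largest change of the members.

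Idi1, which converts isopentenyl into dimethylallyl diphosphate, read 4.55, 4.49 and 4.56 on control arrays and 4.20, 4.13 and 4.15 on knockdown arrays (A_55_P2028961). The arrays within a group were close, and the groups were apart. The change was -0.37 (SE 0.046, adjusted p 0.00541), or 77.3% of control (95% confidence interval 71.3 to 83.8). It passed the p threshold but not the fold threshold. The paralog Idi2 was well above background on 2 control arrays and on no knockdown array, and its groups overlapped.

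Fdps builds farnesyl diphosphate, the branch point to sterols and non-sterol isoprenoids. It read 6.50, 6.35 and 6.33 on control arrays and 5.56, 5.58 and 5.63 on knockdown arrays (A_55_P1966804). Control 1 was the highest of the controls, and the knockdown arrays lay close together below them all. The change was -0.80 (SE 0.062, adjusted p 0.00149), or 57.3% of control (95% confidence interval 51.4 to 63.9).

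Fdft1, squalene synthase, makes the first step that is committed to sterols. It read 3.59, 3.53 and 3.60 on control arrays and 3.25, 3.18 and 3.24 on knockdown arrays (A_55_P2033250). The groups were apart by 0.28 at their closest, about as far as those of Idi1. The change was -0.35 (SE 0.045, adjusted p 0.00601), or 78.4% of control (95% confidence interval 72.5 to 84.8), and it was not called.

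Sqle, squalene epoxidase, adds the oxygen from which the sterol ring is closed. It read 5.46, 5.35 and 5.35 on control arrays and 4.73, 4.69 and 4.68 on knockdown arrays (A_55_P1975185). The knockdown arrays were nearly alike, and all lay under the controls. The change was -0.69 (SE 0.051, adjusted p 0.00139), or 62.1% of control (95% confidence interval 56.8 to 68.0). It equalled the median change of the 9 members.

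Within groups the members were tight, with an SD of 0.026 to 0.10 on the log2 scale, and the median SE of their changes was 0.057 beside 0.064 over all genes tested. No knockdown array was the lowest throughout. Array 1 was the lowest for 4 members, array 2 for 4 and array 3 for 1. The mean of the members, each centred on its own mean, was 0.41, 0.34 and 0.33 on control arrays 1 to 3 and -0.37, -0.37 and -0.34 on knockdown arrays 1 to 3.

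For 3 members a further probe was tested, and the probes of a gene share the same RNA and are not replicates. Mvk had A_55_P2058864, with a change of -0.13 (SE 0.053, adjusted p 0.159). Pmvk had A_51_P492410, with a change of -0.56 (SE 0.051, adjusted p 0.00218), under the fold threshold. Fdft1 had A_52_P136138, which changed by -0.32 with an SE of 0.13, larger than at its other probe, and an adjusted p of 0.151. All 12 probes were lower on every knockdown array than on any control array, as were 27.1% of all genes tested. By limma, 10 had an adjusted p below 0.05, beside 15.8% of genes tested that passed in the lower direction. Those 2 shares count genes, each read from 1 probe, and no such share was taken over all probes. Of the 12 probes, 6 were called lower, against 3.82% of all probes tested. Of the 6 members with 1 probe, 5 were called, all but Idi1, and none of the 3 with 2 probes was called by both.

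**Figure D3:**
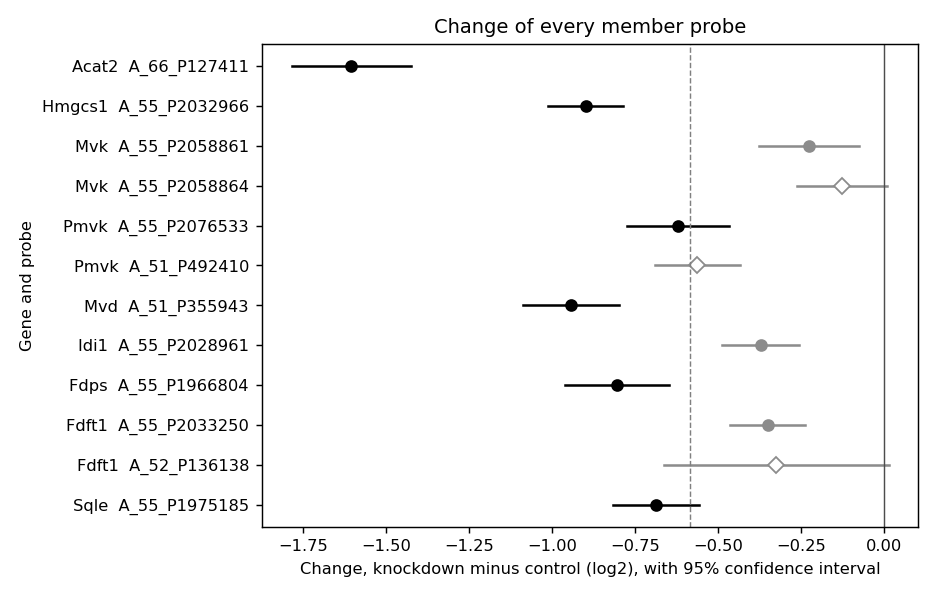
Change of each of the 12 member probes, knockdown minus control on the log2 scale, with 95% confidence intervals from limma. Black marks probes called lower and grey those not called, filled circles mark the probe read for the gene and open diamonds further probes, and the dashed line marks a 1.5-fold decrease. The further probes of Mvk and Fdft1 reach 0 with their intervals, and the intervals of both Pmvk probes, the Sqle probe and the further Fdft1 probe cross the dashed line.

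Along the pathway the size of the change rose and fell from member to member. To set each member against the one before it in the list, the log2 signal of the earlier member was subtracted on each array and the groups were compared by an exact two-sided permutation test that runs through all 20 ways to assign the arrays. From Acat2 to Hmgcs1 the change became smaller by 0.71 (SE 0.091), and from Hmgcs1 to Mvk, which are not consecutive enzymes of the route, smaller again by 0.67 (SE 0.049). From Mvk to Pmvk it differed by -0.39 (SE 0.049), and from Pmvk to Mvd by -0.32 (SE 0.043). It then moved by 0.57 (SE 0.054) to Idi1, by -0.43 (SE 0.062) to Fdps, by 0.45 (SE 0.059) to Fdft1 and by -0.34 (SE 0.041) to Sqle. In all 8 pairs the 3 knockdown arrays lay to one side of the 3 controls. The exact permutation p was 0.1 for each pair, also after Benjamini-Hochberg adjustment over the 8 pairs, which is the smallest value that 3 against 3 arrays can give, so none could pass 0.05. These differences compare probes as well as genes, since probes may differ in how steeply they respond.

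Sorted by change, the order was Acat2, Mvd, Hmgcs1, Fdps, Sqle, Pmvk, Idi1, Fdft1 and Mvk. These neighbours came from sorting the same changes, so the direction of each difference was set beforehand. In this order the arrays overlapped for Mvd and Hmgcs1, for Hmgcs1 and Fdps, for Sqle and Pmvk, and for Fdft1 and Mvk. With so few arrays, overlap does not show that such neighbours changed alike. The other neighbours stood apart, Acat2 from Mvd by 0.66, Fdps from Sqle by 0.12, Pmvk from Idi1 by 0.25 and Idi1 from Fdft1 by 0.020, so standing apart did not require a large difference.

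All 6 arrays lay on 1 slide. The 3 controls and knockdown 1 were in its first row, and knockdown 2 and 3 were in the second. With the row as a block, the change is that of the single array knockdown 1 against the 3 controls, and the spread comes from the controls and from the pair in the second row, so that knockdown 1 is assumed to vary like the others. Slide position is thus not tested with replicates. The 6 members were called lower in this fit too, and their changes within the first row were -1.71 for Acat2, -0.87 for Hmgcs1, -0.66 for Pmvk, -0.90 for Mvd, -0.83 for Fdps and -0.66 for Sqle. For Mvk, Idi1 and Fdft1 the change was -0.27, -0.33 and -0.32, and the adjusted p by limma was then 0.147, 0.0620 and 0.0676.

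The change of each member was followed through 22 alternative settings of scaling, background correction, filter, model, threshold and left-out array. Every member kept a change below 0 in all 22, but in many of these the sign was set beforehand. Filters, the variance trend, the replicate block and the fold thresholds leave the change itself as it was. As the groups did not overlap for any member, array weights, the row block or a left-out array could not turn its sign. Acat2 was called in 22, Hmgcs1, Mvd, Fdps and Sqle in 21, and Pmvk in 19. Hmgcs1, Mvd, Fdps and Sqle were lost only where the minimum fold was raised to 2. Mvk, Idi1 and Fdft1 were called only where no minimum fold was asked. Leaving out any one array left the same 6 members called.

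**Figure D4:**
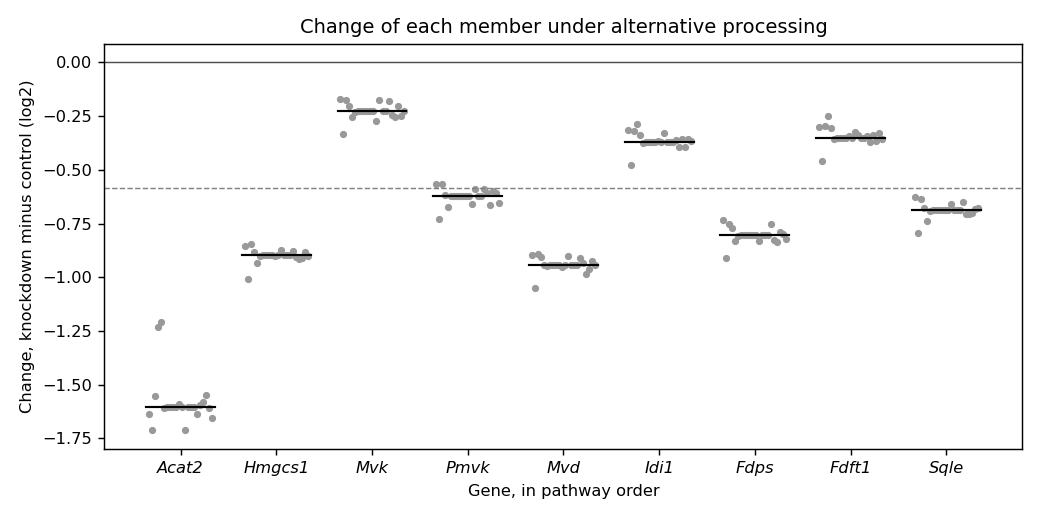
Grey points give the change of each member, knockdown minus control on the log2 scale, under each of 22 alternative settings, and black bars give the change as reported. The dashed line marks a 1.5-fold decrease. Points of Pmvk lie on both sides of this line, those of Mvk, Idi1 and Fdft1 lie above it, and the Acat2 points nearest 0 are those with normexp correction.

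Genes that feed or leave the pathway were set beside the members. Of 3 genes that supply cytosolic acetyl-CoA, 2 were called lower, against 5.0% of all genes tested. They were Acss2, acetyl-CoA synthetase, with a change of -0.86 (SE 0.063), and Acly, ATP citrate lyase, with -0.66 (SE 0.051). The third, Slc25a1, the citrate carrier, changed by -0.30 and was not called. With normexp and quantile normalization, or with the mean of all probes of a gene, 1 of the 3 was called. With a minimum fold of 2, none of the 3 was called. Of 11 enzymes that act after squalene epoxide, 9 were called lower and none higher, against 5.0% and 3.91% of all genes tested. Their median change was -0.95, beside 0.0053 for all genes tested. The count called lower was 8 without knockdown 2, without knockdown 3 and in 4 other settings, 10 with no minimum fold and 5 with a minimum fold of 2. It also fell with the slide row as a block, where the change is that of knockdown 1 alone. Those with the largest changes were Tm7sf2, a sterol reductase, with -1.88 (SE 0.067), Ebp, a sterol isomerase, with -1.74 (SE 0.057), and Nsdhl, a sterol dehydrogenase, with -1.24 (SE 0.048). Each changed more than any member but Acat2, and Tm7sf2 and Ebp also more than Acat2. Adjusted p for these 5 called genes ran from 0.000323 to 0.00153 by limma.

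Other branches take isoprenoids away from sterols. Of 15 genes of the branches to dolichol, ubiquinone, tRNA or protein anchors, none was called in either direction. Over all genes, 5.0% were called lower and 3.91% higher, so that a count of 0 in 15 lies near the background. Their median change was 0.0088. Of these, 2 were lower and 5 higher on every knockdown array, beside 27.1% and 27.7% of all genes tested. Values ran from -0.28 for Rce1, the protease that trims prenylated proteins, to 0.27 for Pggt1b, a subunit of geranylgeranyl transferase. The difference between this list and the members was not tested.

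Of 10 genes of SREBP control and sterol uptake, 3 were called lower, against 5.0% of all genes, and none higher, with a median change of -0.30. The count called lower was 4 with median scaling and without control 2, 6 with no minimum fold and 1 with a minimum fold of 2. It also rose with the slide row as a block, where the change is that of knockdown 1 alone. The 3 called were Stard4, Scap and Srebf1. Stard4, a sterol carrier, changed by -1.04 (SE 0.084). Scap, the sterol-sensing escort of SREBP, changed by -0.80 (SE 0.045), and Srebf1, which encodes SREBP-1, by -0.67 (SE 0.058). Adjusted p for these was 0.00167, 0.000705 and 0.00192 by limma. Srebf2, which encodes SREBP-2, changed by -0.57 (SE 0.048, adjusted p 0.00184) and was not called, as its change lay just under the fold threshold. Of 6 genes of sterol efflux and esterification, 1 was called lower and 1 higher, beside 5.0% and 3.91% of all genes tested. Soat1, which esterifies cholesterol, changed by -0.60 (SE 0.10, adjusted p 0.0149) and lost its call without control 2, without control 3 or without knockdown 2, as well as under both normexp settings, both blocks, the 75th percentile over probes well above background and a minimum fold of 2. Abcg1, a sterol exporter, was well above background on all 3 knockdown arrays and on no control array. With the control set at the lowest signal well above background, it was at least 1.61-fold higher on knockdown arrays. Its call (adjusted p 0.000478 by limma) is of the fitted change and does not test this bound.

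**Figure D5:**
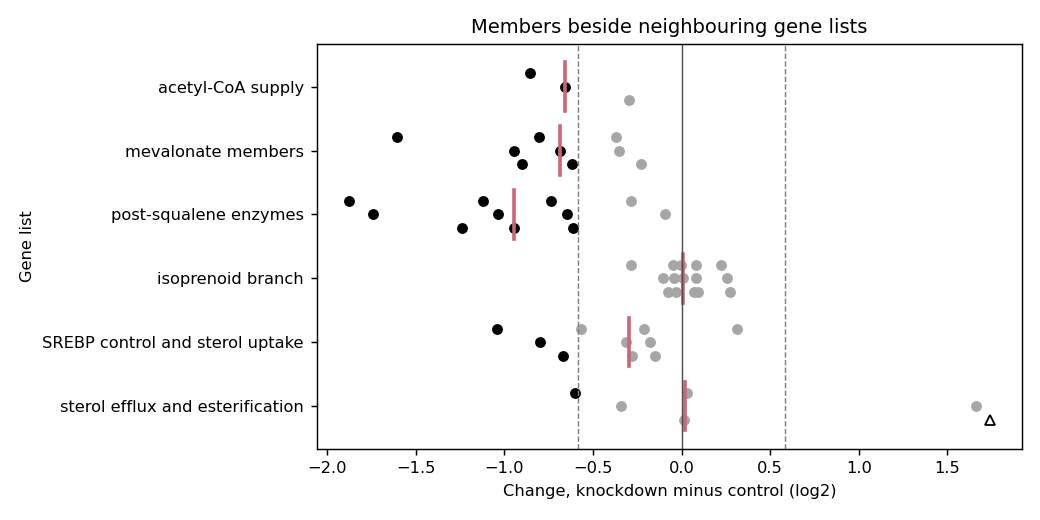
Change of each gene, knockdown minus control on the log2 scale, for the mevalonate members and 5 neighbouring lists. Black points were called, grey points were not, the open triangle is a gene not well above background on all 6 arrays (Abcg1, at its fitted change), red bars are list medians and dashed lines mark 1.5-fold changes. Medians of the members and of the post-squalene enzymes lie at -0.69 and -0.95, and that of the isoprenoid branch lies at 0.0088.

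Across 13960 genes outside the members that were well above background on all 6 arrays, those with a pattern most like the mean of the 9 members were sought by the root mean square difference of centred log2 signal over the 6 arrays. The closest were Slc37a4, the glucose 6-phosphate carrier of the ER, at 0.016, Olfml2b at 0.021, Cpm, a membrane carboxypeptidase, at 0.023, Pnma5 at 0.023 and Mrpl41, a mitochondrial ribosomal protein, at 0.026. Their changes were -0.70, -0.73, -0.77, -0.71 and -0.68, beside a mean of -0.72 for the members. They were picked for this likeness out of many genes, and no test was made of it.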

How the data were processed

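The authors hybridised N2a RNA to Agilent SurePrint G3 arrays and ran Agilent Feature Extraction 10.10.1.1 (version from the file headers and the submitters' processing notes). The deposited intensity of each spot is the processed, background-corrected signal. The deposited series matrix holds log2 values, whose differences between arrays matched those used here to 0.0076, so it is the same scaling less a constant per probe. Leaving out control spots and outlier flags, the intensity was put on the log2 scale less the array's 75th percentile. Of 55681 probes, 245 lacked a value on an array, and 42126 reached the 20th percentile on all 3 arrays of a group. Accessions were named through a RefSeq table of GRCm38.p6 (a symbol was found for 25869 of 26392 probes named by a curated mRNA accession, and 20548 tested probes had no symbol). A gene was read from its probe of highest mean signal, for 16490 genes. Knockdown was set against control by limma 3.58.1 under R 4.3.3, using lmFit and eBayes without covariates, two-sided, with Benjamini-Hochberg adjustment over all probes. The script was tested on simulated data. Normexp (offset 50) used median signals. The number of arrays limits the precision.

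The members, the lists and the tests were chosen with earlier results of these data known. All members and every probe are named, with NF-Y subunits, up to 3 called genes of each list with the largest change, paralogs of members and the 5 most alike genes. Other genes were named after their values were seen. Alternatives were other scalings, background corrections, filters, models, thresholds and left-out arrays.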

Additional observations from a re-analysis of the deposited data

How the results depend on the processing

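The 6 called members were all called lower in 19 of 22 settings. Pmvk was lost with quantile normalization and with the 75th percentile over probes well above background, and with a minimum fold of 2 only 1 member, Acat2, was called. Over all genes, 824 were called lower and 644 higher. With no minimum fold the counts were 2602 and 2597, and with a minimum fold of 2 they were 286 and 181. Median scaling, which moved the median change of all probes to -0.11, called 1140 lower and 391 higher. Normexp called 549 lower and 292 higher with quantile normalization, and 587 and 275 with the 75th percentile. Leaving out an array gave 746 to 832 lower and 545 to 609 higher. The cause of these shifts was not tested.

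Samples with the same replicate number did not deviate together (correlations of 0.018, 0.067 and 0.0025 across probes), so the numbers were not taken as pairs. A fit with the replicate block called 765 lower and 518 higher and the same 6 members, with an adjusted p by limma of 0.130 for Mvk.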
